A study of Mus musculus with 24 samples.

Results

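STAU2 immunoprecipitates from embryonic mouse cortex were searched for RNAs of protein kinases, protein phosphatases and their regulatory subunits. The genes were chosen by symbol, from the families Map2k, Map3k, Map4k, Mapk, Stk, Prk, Camk, Mark, Nek, Csnk, Dyrk, Cdkl, Gsk3, Akt, Pik3, Dusp, Ppp, Ptpn and Ptpr, without Ptprk, Ppp3ca, Camk2a and Camk2b. They are 174 of the 7702 genes with at least 1 counted exonic peak, and 312 of 13749 such peaks. STAU2 is a protein that binds double-stranded RNA and carries RNAs into dendrites and into daughters of dividing progenitors.

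The tissue was brain cortex of C57BL/6 embryos, precipitated with an anti-STAU2 antibody (Abcam ab60724), with 3 libraries at each of 4 stages, the early E11.5 and E13.5 and the later E15.5 and E17.5. The labels also list 3 inputs per stage, which were not analysed here. Column names give a stage and a replicate number that fit an immunoprecipitation and its input alike. They were read as immunoprecipitations because the table lists peaks, and all values below rest on that reading. Without input, more RNA in the tissue and stronger binding cannot be told apart. In a bulk tissue, fewer cells of a type and less RNA per cell cannot be told apart either. The design asks how RNAs bound by STAU2 change with stage.

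Protein kinases attach phosphate to serine, threonine or tyrosine, and phosphatases remove it. Kinases often act in cascades, while the main serine and threonine phosphatases take their targets from a large choice of regulatory subunits. In the developing cortex these enzymes are known for roles in progenitor division, cell polarity, axon growth and, later, synaptic signalling.

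The symbols hold a few genes that are not such enzymes. Camk2n1 and Camk2n2 encode inhibitors of CaM kinase II, Camkv a pseudokinase, and Camkmt a methyltransferase that acts on calmodulin. Mapk8ip1 and Mapk8ip3 encode scaffolds of JNK signalling, and Mapkap1 a subunit of an mTOR complex. Mapk1ip1, Mapk1ip1l, Mapkbp1 and Stk11ip are named as partners of such kinases. Csnk2a1-ps3 and Ppp4r1l-ps are named as pseudogenes. The Pik3 genes encode lipid kinases and their subunits. Some families lacked a counted peak for a well-known gene: Mapk8, Map3k1, Prkar1a, Prkce, Camk4, Ppp2ca and Dusp6 had none.

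Of the 312 peaks, 156 (50%) were placed by the deposited table in a 3' UTR, 128 (41.0%) in an exon and 28 (8.97%) in a 5' UTR. Over all genes the shares were 48.7%, 43.0% and 8.26%. A single peak represented 92 of the 174 genes (52.9%), against 56.8% of all genes, and the most for 1 gene was 6. A 3' UTR peak was present for 121 (69.5%), against 68.3% of all genes. By position and GC content the kinase and phosphatase peaks lay close to the rest. The 123 peaks that fell within 1 annotated exon had a median GC content of 48.6%, against 47.2% over 5386 such peaks of all genes. Their predicted folding energy had a median of -25.4 kcal/mol per 100 bases, against -25.5, and the longest unbroken helix had a median of 9 base pairs in both sets. The longest helix among them had 22 base pairs, in the 3' UTR peak of Mapk12, which encodes a p38 MAP kinase.

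Coding peaks of 3 genes are shown because STAU2 binds paired RNA and the peaks lie in genes with different courses over the stages. Ptprs encodes a receptor tyrosine phosphatase of growing axons and rose at E13.5. Map3k9 encodes a kinase upstream of JNK and had its highest levels at E17.5. Prkaa1 encodes a catalytic subunit of AMPK, the energy-sensing kinase, and was highest at E11.5. Sequences are from GENCODE vM21 transcripts (GRCm38), 5' to 3', and capitals mark both arms of the longest unbroken helix in the minimum free energy fold computed for the whole peak. The Ptprs peak lies at chr17:56435981-56436125 on the minus strand and has a helix of 7 base pairs. The Map3k9 bases shown are chr12:81724130-81724429, minus strand, 300 of the 317 bases of its peak, with a helix of 8. The Prkaa1 peak lies at chr15:5178741-5178885 on the plus strand and has a helix of 5. These helices are shorter than the median of 9 base pairs given above, and binding of STAU2 to them was not tested.
Ptprs: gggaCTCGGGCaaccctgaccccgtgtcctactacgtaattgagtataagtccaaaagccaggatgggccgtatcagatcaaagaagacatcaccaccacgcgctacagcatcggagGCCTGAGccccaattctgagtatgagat
Map3k9: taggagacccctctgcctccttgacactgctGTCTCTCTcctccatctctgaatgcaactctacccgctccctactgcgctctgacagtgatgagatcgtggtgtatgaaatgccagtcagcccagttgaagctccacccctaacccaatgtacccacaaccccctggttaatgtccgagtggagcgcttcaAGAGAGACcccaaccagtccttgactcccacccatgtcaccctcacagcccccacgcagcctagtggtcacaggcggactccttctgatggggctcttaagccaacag
Prkaa1: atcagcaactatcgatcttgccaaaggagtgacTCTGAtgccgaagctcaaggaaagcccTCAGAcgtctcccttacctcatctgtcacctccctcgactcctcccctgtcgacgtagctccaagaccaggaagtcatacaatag
Counts of these single peaks are part of the counts of their genes, so a shared course is fixed in part by the summing. The Ptprs peak is 1 of 4 of its gene and held only a small part of its counts. The Prkaa1 peak is 1 of 2. The Ptprs peak averaged 8.98 ± 2.41 CPM for E11.5, 64.2 ± 33.5 for E13.5, 76.3 ± 9.05 for E15.5 and 31.7 ± 7.33 for E17.5. The Map3k9 peak is the only one of its gene and averaged 12.3 ± 6.11 CPM for E11.5, 18.0 ± 7.96 for E13.5, 27.3 ± 8.01 for E15.5 and 55.5 ± 16.4 for E17.5. The Prkaa1 peak averaged 17.51 ± 1.47 CPM for E11.5, 8.52 ± 0.289 for E13.5, 10.2 ± 2.22 for E15.5 and 7.97 ± 3.72 for E17.5. CPM are counts scaled to 1000000 exonic gene counts per library after TMM, an edgeR method that sets the typical gene to no change. Means are given ± SD over the libraries of a stage (n = 3).

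Totals of exonic gene counts were 1954160 to 4693793 per library. The E11.5 libraries stood apart from the rest. They held the lowest totals, at most 2454846. The 10 highest genes took 8.95% to 11.95% of counts in later libraries, against 21.1% to 24.7% in E11.5 libraries. Lars2 alone took 6.12% to 11.9% at E11.5. The kinase and phosphatase genes held 1.38% to 2.27% of the counts. Scaling by the plain total would raise the median of all genes by 0.35 on the log2 scale at E13.5 against E11.5 and by 0.30 at E17.5 against E11.5, so changes below are relative to the typical gene under TMM. The labels do not say whether replicates came from separate embryos or litters, so each p-value rests on the spread of these libraries alone, which may be technical. Every adjusted p below is from edgeR's quasi-likelihood test with Benjamini-Hochberg adjustment over 7651 genes, all 174 among them, at a threshold of 0.05.

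Markers fixed for the cell types that the tissue could hold moved with stage. Summed over 13 measured genes, pan-neuronal markers had 739 to 867 CPM in E11.5 libraries, 3516 to 4041 in those of E13.5, 4888 to 6035 in those of E15.5 and 8284 to 8765 in those of E17.5. Tubb3, Nefl, Gap43 and Syt1 had no counted peak. Each of the other marker lists also held genes without a counted peak, and the numbers of markers below are of measured genes. The 10 radial glia markers had summed levels of 1322 to 1946 CPM in E17.5 libraries, against 1059 to 1739 CPM in E11.5 libraries, with 2 higher and 6 lower genes at E17.5 against E11.5. The 8 cell cycle markers had 208 to 273 CPM in E17.5 libraries, against 1375 to 1852 CPM in E11.5 libraries. The 8 meningeal and mesenchymal markers had 523 to 587 CPM in E11.5 libraries, 540 to 620 in those of E13.5, 69.9 to 81.2 in those of E15.5 and 9.63 to 11.6 in those of E17.5. The 2 measured erythroid genes together had at most 0.292 CPM in E17.5 libraries, against 46.9 to 53.8 CPM in E11.5 libraries. The 5 endothelial and microglial genes had 38.3 to 62.9 CPM in E11.5 libraries, 56.5 to 98.1 in those of E13.5 and 24.6 to 26.6 in those of E17.5. The part of these cells in the results below was not tested.

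Over the 4 stages, 104 of the 174 genes changed (59.8%; edgeR F test), against 54.9% of all genes tested. Of the 104, 45 had their highest mean in E11.5 libraries, 4 in those of E13.5, 8 in those of E15.5 and 47 in those of E17.5. As shares these were 43.3%, 3.85%, 7.69% and 45.2% in the same order of stages, against 40.3%, 10.2%, 8.15% and 41.4% of the 4197 genes that changed among all genes. At E13.5 against E11.5, 22 genes rose and 26 fell, 27.6% of the 174, against 25.3% of all genes (14.0% higher and 11.3% lower). At E15.5 against E13.5 none passed, against 0.745% of all genes (0.196% higher and 0.549% lower). At an unadjusted p under 0.05 there were 16 of the 174, and 751 of all genes, and DESeq2 called 4 of the 174, all higher, and 143 of all genes. At E17.5 against E15.5, 21 rose and 16 fell, 21.3%, against 21.9% of all genes (9.74% higher and 12.2% lower). At E17.5 against E11.5, 57 rose and 53 fell, 63.2%, against 58.6% of all genes (29.8% higher and 28.8% lower). The median log2 change at E17.5 against E11.5 was 0.11, against 0.04 over all genes. The shares called lay close to those of all genes at every step.

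With scaling by the plain total the split at E13.5 against E11.5 became 41 higher and 17 lower, and at E17.5 against E11.5 it became 72 higher and 42 lower. Without E15.5 replicate 3, 13 in place of 21 rose at E17.5 against E15.5. In a fit of the 3 later stages alone, added after seeing the data, 55 of 173 genes changed (against 31.3% of all genes), and 25 rose and 17 fell at E17.5 against E15.5.

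**Figure D1:**
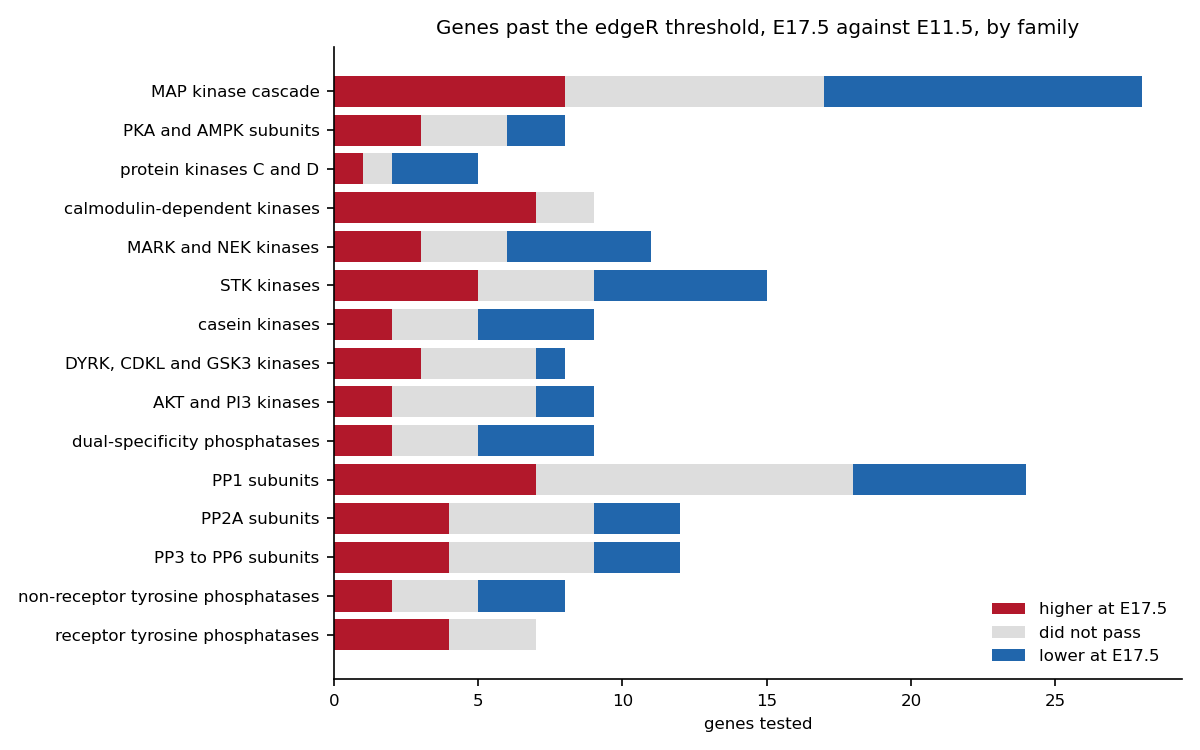
Number of genes tested in each of 15 families (horizontal axis, genes), split into those higher at E17.5 than at E11.5 (red), those that did not pass (grey) and those lower (blue), by edgeR at an adjusted p of 0.05. Calmodulin-dependent kinases (7 higher of 9) and receptor tyrosine phosphatases (4 higher of 7) have no gene in blue. The bar of calmodulin-dependent kinases also holds inhibitors of CaM kinase II, a pseudokinase and a methyltransferase. MAP kinase cascade genes (8 higher and 11 lower of 28) are split, and their bar also holds scaffolds and other genes that are not kinases of the cascade. Among all genes tested 29.8% were higher and 28.8% lower.

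The MAP kinase cascade, in which kinases of successive tiers activate each other, was taken by symbol and was split between rises and falls. Its counts include Mapk1ip1, Mapk1ip1l, Mapkbp1, Mapk8ip1, Mapk8ip3 and Mapkap1, which are not kinases of the cascade. Of 28 genes tested, 8 rose and 11 fell at E17.5 against E11.5 (67.9%, against 58.6% of all genes). At E13.5 against E11.5, 1 rose and 8 fell (32.1%, against 25.3% of all genes). Scaled by the plain total, 11 were higher and 9 lower at E17.5 against E11.5, and 5 higher and 6 lower at E13.5 against E11.5. Genes that act towards p38 and JNK changed in both directions. Map2k4, which activates both, had 130.2, 104 and 96.9 CPM in the E11.5 libraries, 62.3, 62.8 and 32.2 in those of E13.5, 49.7, 51.4 and 54.8 in those of E15.5 and 31.1, 35.6 and 30.4 in those of E17.5. It fell at E17.5 against E11.5, with a log2 change of -1.77 ± 0.29 (SE; adjusted p = 5.15e-05). Mapk12, a p38 kinase, had 43.7, 46.9 and 71.0 CPM in the E11.5 libraries, 9.15, 11.46 and 11.52 in those of E13.5, 6.73, 6.45 and 8.79 in those of E15.5 and 7.04, 8.17 and 8.61 in those of E17.5. Its E11.5 libraries lay above all others, and the log2 change at E13.5 against E11.5 was -2.32 ± 0.31 (SE; adjusted p = 4.96e-05). Mapk14, the main p38 kinase, had a log2 change of -1.40 ± 0.36 (SE; adjusted p = 0.00273) at E17.5 against E11.5.

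Map3k20 encodes ZAK, a kinase that responds to stalled ribosomes. Its counts were 32.7, 46.3 and 21.0 CPM in the E11.5 libraries, 16.96, 19.6 and 17.6 in those of E13.5, 13.7, 17.1 and 13.6 in those of E15.5 and 1.63, 2.63 and 1.77 in those of E17.5. The E17.5 libraries were the lowest, without overlap, and the log2 change was -2.87 ± 0.39 (SE; adjusted p = 0.000117) at E17.5 against E15.5. Map3k12 encodes DLK, a kinase of axon injury responses, and had a log2 change of -1.64 ± 0.39 (SE; adjusted p = 0.00549) at E13.5 against E11.5. The only peak of Map3k12 has a counted peak on the opposite strand at the same place. Its fall at E17.5 against E11.5 (log2 change -1.11 ± 0.39 SE, adjusted p = 0.0199) was lost without E11.5 replicate 2, E11.5 replicate 3 or E17.5 replicate 2 (adjusted p 0.0541 to 0.0659) and with scaling by the plain total (0.0732). Mapk8ip1, the JNK scaffold JIP1, had 17.8, 9.26 and 35.2 CPM in the E11.5 libraries, 4.46, 3.10 and 5.43 in those of E13.5, 5.94, 2.45 and 2.99 in those of E15.5 and 1.63, 0.875 and 5.83 in those of E17.5. Its E11.5 libraries were the highest though they spread widely, and the log2 change at E17.5 against E11.5 was -2.86 ± 0.62 (SE; adjusted p = 0.000781).

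Other members, chosen after their values were seen, were Map2k3 and Map2k6, the activators of p38, and Mapk9, which encodes JNK2. Their log2 changes at E17.5 against E11.5 were -1.89 ± 0.34 (SE; adjusted p = 0.000142), -2.10 ± 0.27 (SE; adjusted p = 5.65e-06) and -1.15 ± 0.29 (SE; adjusted p = 0.0029). Others of the same branches, also chosen after their values were seen, were higher at E17.5 than at E11.5. Mapk11, which encodes p38 beta, had 14.4, 12.97 and 12.3 CPM in the E11.5 libraries, 17.6, 17.9 and 19.3 in those of E13.5, 22.4, 19.3 and 27.3 in those of E15.5 and 31.7, 29.2 and 48.4 in those of E17.5. Its E17.5 libraries lay above all others, with a log2 change of 1.46 ± 0.31 (SE; adjusted p = 0.000641) at E17.5 against E11.5. Map3k9, the kinase upstream of JNK whose peak is shown, had a log2 change of 2.20 ± 0.43 (SE; adjusted p = 0.000322). Mapk8ip3, the JNK scaffold JIP3, had a log2 change of 1.63 ± 0.68 (SE; adjusted p = 0.0469), with overlapping libraries. The call was lost without any of 6 libraries, those of E11.5, E15.5 replicate 1 and E17.5 replicates 2 and 3 (adjusted p 0.0535 to 0.259). It was also lost with 3' UTR peaks alone (0.0512), with intronic peaks counted too (0.0560) and by DESeq2 (0.0885). The only peak of Mapk8ip3 has a counted peak on the opposite strand at the same place.

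In the ERK branch, Mapk3 and Map2k1 did not pass the test. Mapk3, which encodes ERK1, averaged 384 ± 51.4 CPM for E11.5, 301 ± 16.5 for E13.5, 352 ± 53.6 for E15.5 and 340.1 ± 18.6 for E17.5, and Map2k1, its activator MEK1, averaged 10.6 ± 4.16 CPM for E11.5, 9.59 ± 4.79 for E13.5, 6.07 ± 0.9 for E15.5 and 10.98 ± 5.09 for E17.5. Their log2 changes at E17.5 against E11.5 were -0.17 ± 0.23 (SE; adjusted p = 0.524) and 0.08 ± 0.48 (SE; adjusted p = 0.896).

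Protein kinase A is built of catalytic subunits held inactive by regulatory subunits until cyclic AMP binds. Its measured regulatory and catalytic subunits moved in opposite directions at E17.5 against E11.5. The regulatory subunit Prkar2b, named after its values were seen, was called higher there. That call was lost without E17.5 replicate 1 (adjusted p = 0.0713). Prkar1b, the regulatory subunit RI beta of neurons, had 0.961, 1.85 and 2.47 CPM in the E11.5 libraries, 16.7, 6.68 and 15 in those of E13.5, 48.9, 31.6 and 23.0 in those of E15.5 and 159.5, 203 and 199 in those of E17.5. Each stage lay above the one before it, with no overlap between neighbouring stages. The log2 change was 2.89 ± 0.52 (SE; adjusted p = 0.000631) at E13.5 against E11.5 and 2.44 ± 0.35 (SE; adjusted p = 0.000158) at E17.5 against E15.5. At E17.5 against E11.5 it was 6.75 ± 0.50 (SE; adjusted p = 1.62e-08), the largest rise among the 174 genes. The size of this rise, and so its rank, rests on scarce counts at E11.5, at most 2.47 CPM. Prkaca, the main catalytic subunit, had 389, 479.7 and 429 CPM in the E11.5 libraries, 87.5, 92.6 and 149 in those of E13.5, 91.4, 122 and 79.8 in those of E15.5 and 109, 114 and 116 in those of E17.5. All E11.5 libraries lay above all later ones, and the log2 change was -1.98 ± 0.27 (SE; adjusted p = 5.24e-05) at E13.5 against E11.5 and -1.94 ± 0.27 (SE; adjusted p = 1.06e-05) at E17.5 against E11.5.

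AMPK subunits are listed with protein kinase A. Of these 8 genes 3 rose and 2 fell at E17.5 against E11.5 (62.5%, against 58.6% of all genes). Prkag1, a regulatory gamma subunit of AMPK, was among the 5 genes of at least 20 CPM whose stage means differed least, with means of 35.99 ± 7.96 CPM for E11.5, 35.9 ± 4.94 for E13.5, 36.6 ± 1.93 for E15.5 and 34.0 ± 7.76 for E17.5. Prkaa1 had 45.1, 29.0 and 28.4 CPM in the E11.5 libraries, 16.1, 18.4 and 14.6 in those of E13.5, 17.4, 14.0 and 18.5 in those of E15.5 and 12.5, 16.9 and 13.4 in those of E17.5, and its log2 change at E17.5 against E11.5 was -1.27 ± 0.31 (SE; adjusted p = 0.00191).

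The atypical protein kinases C act in cell polarity, and the pair measured here diverged. Prkcz had 12.01, 17.9 and 9.26 CPM in the E11.5 libraries, 44.4, 17.2 and 30.4 in those of E13.5, 62.7, 80.5 and 38.3 in those of E15.5 and 134, 154 and 133 in those of E17.5. Its E17.5 libraries lay above all others, and the log2 change at E17.5 against E11.5 was 3.42 ± 0.39 (SE; adjusted p = 1.67e-06). Prkci, named after its values were seen, averaged 106 ± 30.6 CPM for E11.5, 65.9 ± 10.03 for E13.5, 60.8 ± 12.4 for E15.5 and 47.1 ± 4.49 for E17.5 and fell, with a log2 change of -1.17 ± 0.27 (SE; adjusted p = 0.00154) over the same interval. Prkd3, which encodes protein kinase D3, averaged 43.1 ± 11.49 CPM for E11.5, 34.4 ± 4.26 for E13.5, 23.5 ± 9.57 for E15.5 and 7.49 ± 3.60 for E17.5. It had a log2 change of -1.65 ± 0.39 (SE; adjusted p = 0.00633) at E17.5 against E15.5.

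Genes with Camk symbols rose late. They encode calmodulin-dependent kinases, which respond to calcium, except Camk2n1, Camk2n2, Camkv and Camkmt, which are not such enzymes. Of 9 tested, 7 rose and none fell at E17.5 against E15.5 (77.8%, against 21.9% of all genes). The same counts were found at E17.5 against E11.5 (77.8%, against 58.6%). The kinase genes Camk1, Camk1g, Camk2g and Camkk2 rose in both comparisons, as did Camkv, Camk2n1 and Camk2n2. The 9 had a median log2 change of 1.24 at E17.5 against E15.5 and 2.20 at E17.5 against E11.5, against -0.02 and 0.04 for all genes. With size factors of DESeq2 or scaling by the plain total the counts were also 7 and 0 in both comparisons. With 3' UTR peaks alone 6 of 9 rose at E17.5 against E15.5, and with the higher-scoring peaks alone 4 of 5 rose. Of the 13 pan-neuronal markers, 11 rose and none fell at E17.5 against E11.5, and 5 rose and 1 fell at E17.5 against E15.5. Their part in this was not tested. Camk2d and Camkmt did not pass in either comparison.

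Camkv, which encodes a pseudokinase of synaptic spines, had 12.5, 16.1 and 8.64 CPM in the E11.5 libraries, 23.4, 18.9 and 28.3 in those of E13.5, 41.0, 48.5 and 42.4 in those of E15.5 and 354, 263 and 372 in those of E17.5. The E17.5 libraries lay above the others by several-fold, with a log2 change of 2.91 ± 0.28 (SE; adjusted p = 5.41e-06) at E17.5 against E15.5. Camk1, which encodes CaM kinase I alpha, had 16.3, 17.3 and 27.1 CPM in the E11.5 libraries, 37.7, 22.4 and 33.3 in those of E13.5, 31.5, 38.2 and 39.3 in those of E15.5 and 131, 66.5 and 142 in those of E17.5. Its log2 change was 1.64 ± 0.32 (SE; adjusted p = 0.00172) at E17.5 against E15.5, and E17.5 replicate 2 was the lowest of its stage. The call was lost with the higher-scoring peaks alone (adjusted p = 0.0614). At the 3' UTR peak of Camk1 a counted peak lies on the opposite strand at the same place. Camk1g, the gamma form, was scarcer, with 2.40, 0.617 and 2.47 CPM in the E11.5 libraries, 4.69, 2.63 and 3.91 in those of E13.5, 3.56, 12.7 and 5.80 in those of E15.5 and 26.8, 17.51 and 34.7 in those of E17.5. The E17.5 libraries again stood above the rest, with a log2 change of 1.85 ± 0.45 (SE; adjusted p = 0.00736) at E17.5 against E15.5.

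Camkk2, the kinase that activates CaM kinase I and AMPK, had 68.7, 82.7 and 87.0 CPM in the E11.5 libraries, 121, 69.5 and 98.0 in those of E13.5, 152, 184 and 108 in those of E15.5 and 271, 299.7 and 333 in those of E17.5. It rose by a log2 change of 1.02 ± 0.27 (SE; adjusted p = 0.011) at E17.5 against E15.5, a call lost without E15.5 replicate 3 (adjusted p = 0.0611) or with 3' UTR peaks alone (0.0806), and by 1.92 ± 0.28 (SE; adjusted p = 1.62e-05) at E17.5 against E11.5. Inhibitors of CaM kinase II rose too. Camk2n2 had 81.2, 107 and 119.7 CPM in the E11.5 libraries, 65.6, 68.0 and 203 in those of E13.5, 168, 129.6 and 142 in those of E15.5 and 532, 430.1 and 449 in those of E17.5, with a log2 change of 1.68 ± 0.36 (SE; adjusted p = 0.00329) at E17.5 against E15.5. Camk2n1 and Camk2g, the remaining members that passed, had log2 changes of 2.66 ± 0.40 (SE; adjusted p = 2.67e-05) and 1.57 ± 0.34 (SE; adjusted p = 0.00081) at E17.5 against E11.5. At E17.5 against E15.5 the Camk2n1 call was lost without E15.5 replicates 2 or 3 or E17.5 replicates 1 or 2 (adjusted p 0.0707 to 0.101). The Camk2g call was lost there without E15.5 replicates 1 or 2 or E17.5 replicate 1 (0.0607 to 0.0928).

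**Figure D2:**
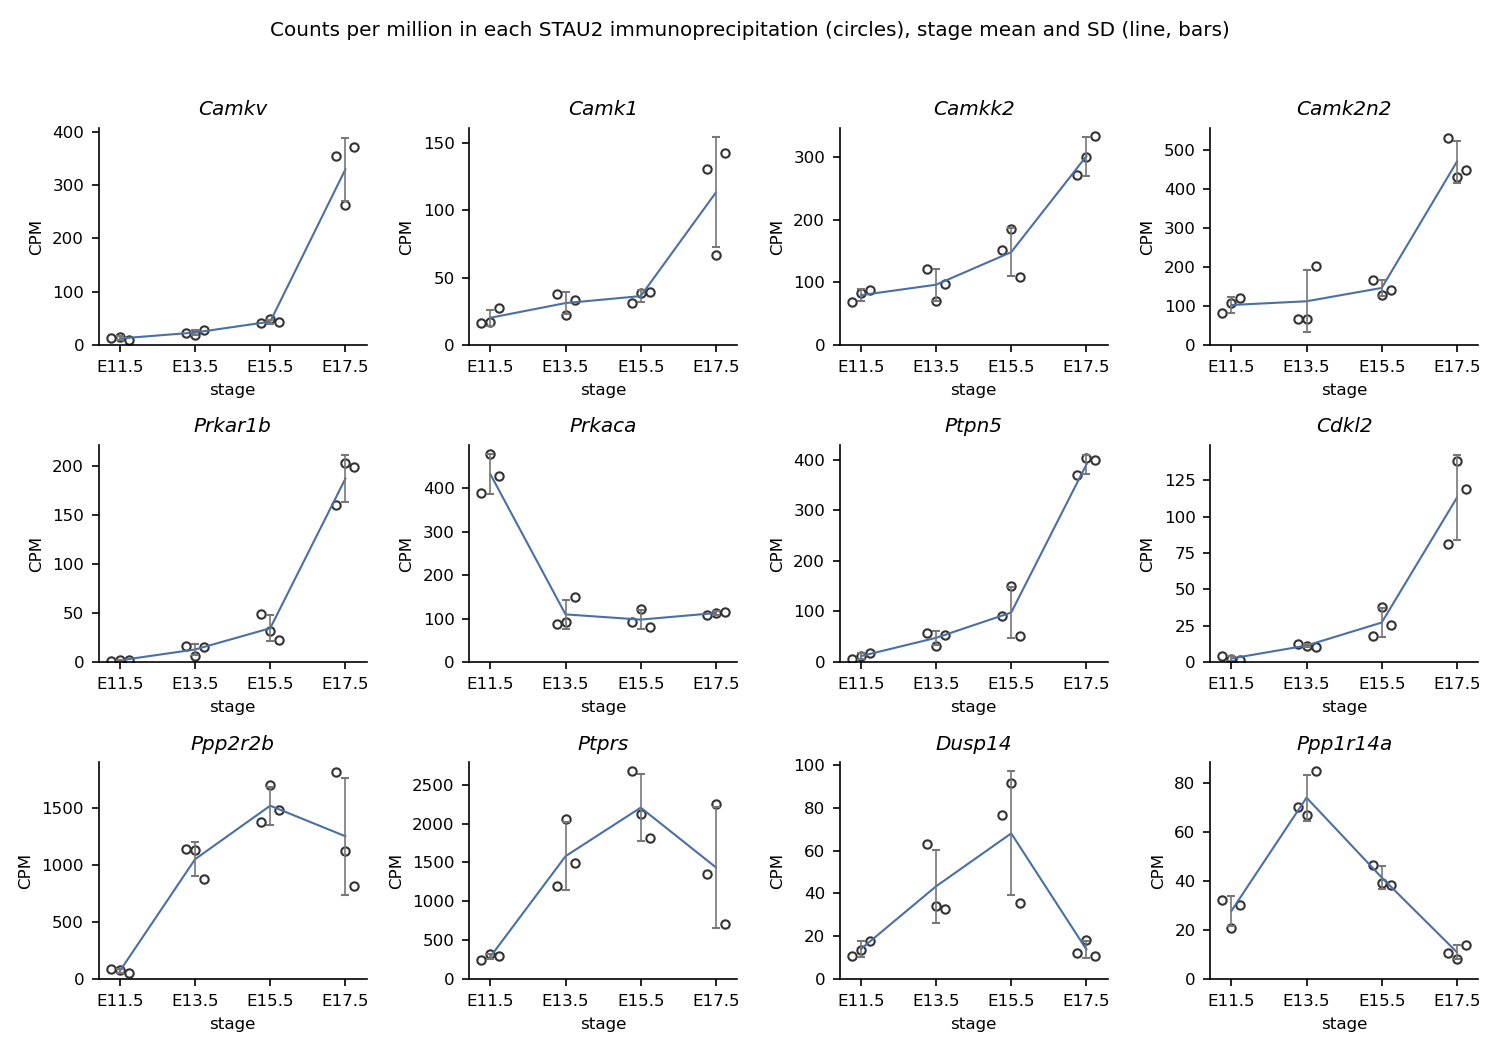
CPM (vertical axis, linear, from 0) in each of the 3 libraries of a stage (circles) for 12 genes, with the stage mean (line) and SD (bars), against stage (horizontal axis). Camkv, Camk1, Camkk2, Camk2n2, Prkar1b, Ptpn5 and Cdkl2 are highest at E17.5, Prkaca is highest at E11.5, Dusp14 is highest at E15.5 and Ppp1r14a at E13.5.

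MARK kinases phosphorylate microtubule-associated proteins such as tau, and the 4 genes differed. Mark1 had 98.9, 48.2 and 84.5 CPM in the E11.5 libraries, 167, 179 and 92.4 in those of E13.5, 211, 176 and 215 in those of E15.5 and 172, 247 and 228 in those of E17.5, and its log2 change at E17.5 against E11.5 was 1.48 ± 0.31 (SE; adjusted p = 0.000589). Mark4 averaged 91.3 ± 20.6 CPM for E11.5, 122 ± 32.5 for E13.5, 176 ± 46.7 for E15.5 and 225 ± 13.1 for E17.5, with a log2 change of 1.30 ± 0.28 (SE; adjusted p = 0.000781). Mark2 did not pass in any comparison and averaged 82.6 ± 17.1 CPM for E11.5, 93.2 ± 4.46 for E13.5, 114 ± 9.96 for E15.5 and 121 ± 24.1 for E17.5. Mark3 went the other way at E17.5 against E11.5, with means of 25.8 ± 10.3 CPM for E11.5, 25.3 ± 8.04 for E13.5, 23.5 ± 2.63 for E15.5 and 11.7 ± 2.05 for E17.5 and a log2 change of -1.14 ± 0.36 (SE; adjusted p = 0.0122). Leaving out E11.5 replicate 1 ended this call (adjusted p = 0.0705), as did scaling by the plain total (0.0543).

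NEK kinases act in mitosis and at the centrosome. Of the 11 MARK and NEK genes, 3 rose and 5 fell at E17.5 against E11.5 (72.7%, against 58.6% of all genes). With scaling by the plain total 5 rose and 4 fell. Nek2, which acts in centrosome separation, had 57.2, 46.9 and 36.4 CPM in the E11.5 libraries, 40.8, 37.7 and 29.3 in those of E13.5, 19.8, 20.2 and 21.7 in those of E15.5 and 6.50, 8.75 and 9.12 in those of E17.5. Its stage means declined throughout, and it fell, with a log2 change of -1.34 ± 0.29 (SE; adjusted p = 0.00391) at E17.5 against E15.5. Nek7, a mitotic spindle kinase, had 125, 63.6 and 127 CPM in the E11.5 libraries, 42.0, 40.6 and 36.9 in those of E13.5, 26.9, 23.1 and 28.6 in those of E15.5 and 6.50, 10.5 and 7.85 in those of E17.5. It fell at both steps, with log2 changes of -1.40 ± 0.29 (SE; adjusted p = 0.00201) at E13.5 against E11.5 and -1.66 ± 0.31 (SE; adjusted p = 0.00135) at E17.5 against E15.5. Nek6, its close relative, averaged 55.6 ± 15.4 CPM for E11.5, 39.1 ± 4.43 for E13.5, 30.1 ± 11.03 for E15.5 and 12.99 ± 5.21 for E17.5 and had a log2 change of -2.10 ± 0.36 (SE; adjusted p = 9.54e-05) at E17.5 against E11.5. Nek3, named after its values were seen, averaged 4.48 ± 2.48 CPM for E11.5, 8.04 ± 2.26 for E13.5, 11.8 ± 3.14 for E15.5 and 17.54 ± 4.32 for E17.5 and rose, with a log2 change of 1.95 ± 0.45 (SE; adjusted p = 0.00127) at E17.5 against E11.5. The 8 cell cycle markers had lower sums at each later stage, 7 of the 8 passing as lower at E17.5 against E11.5. Their part in the falls was not tested.

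The STK genes are a loose group of serine and threonine kinases, with Stk11ip, named as a partner of Stk11, counted among them. Among the 15, 5 rose and 6 fell at E17.5 against E11.5 (73.3%, against 58.6% of all genes). Stk32b, a little-studied kinase, had 24.98, 16.7 and 13.6 CPM in the E11.5 libraries, 132, 197 and 147 in those of E13.5, 227, 399.6 and 308 in those of E15.5 and 249, 307 and 339.7 in those of E17.5. Its rise lay at E13.5 against E11.5, with a log2 change of 3.09 ± 0.32 (SE; adjusted p = 3.42e-06). Stk32c, its paralog, had 0.48, 1.23 and 0.617 CPM in the E11.5 libraries, 0.67, 0.955 and 1.09 in those of E13.5, 1.39, 0.445 and 1.68 in those of E15.5 and 20.9, 12.8 and 24.3 in those of E17.5. It was near 1 CPM until E15.5 and its rise lay at E17.5 against E15.5, with a log2 change of 3.98 ± 0.49 (SE; adjusted p = 4.74e-05). Stk36, the Fused homolog known for motile cilia, averaged 4.05 ± 1.84 CPM for E11.5, 15.2 ± 2.88 for E13.5, 24.8 ± 4.52 for E15.5 and 21.9 ± 4.52 for E17.5 and had a log2 change of 1.92 ± 0.40 (SE; adjusted p = 0.00191) at E13.5 against E11.5, a call lost with 3' UTR peaks alone (adjusted p = 0.0803).

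Stk39, which encodes SPAK, a regulator of chloride cotransporters, had 219, 92.0 and 189 CPM in the E11.5 libraries, 119, 102 and 82.6 in those of E13.5, 63.3, 46.9 and 83.6 in those of E15.5 and 20.9, 18.4 and 35.97 in those of E17.5. It fell, with a log2 change of -2.73 ± 0.37 (SE; adjusted p = 7.61e-06) at E17.5 against E11.5. Stk26, which encodes the kinase MST4, was scarce. It had 3 counts over the E17.5 libraries and 46 over the E11.5 libraries, a ratio of 0.0314 after division by the TMM-scaled library sizes, with a 95% exact binomial interval of 0.00624 to 0.0976, which covers counting error only. Stk11, which encodes LKB1, a kinase of axon formation, did not pass in any comparison, with means of 46.6 ± 7.21 CPM for E11.5, 67.9 ± 32.2 for E13.5, 49.6 ± 6.24 for E15.5 and 56.0 ± 20.7 for E17.5. Stk25, known for neuronal polarity and Golgi shape, averaged 5.01 ± 2.26 CPM for E11.5, 12.03 ± 8.71 for E13.5, 10.1 ± 1.82 for E15.5 and 17.01 ± 7.41 for E17.5. Its rise at E17.5 against E11.5 (log2 change 1.75 ± 0.57 SE, adjusted p = 0.0137) was lost without E11.5 replicate 2 or E17.5 replicate 3 (adjusted p 0.0596 and 0.0709).

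Casein kinases are constitutively active kinases with many targets. Of 9 genes, 2 rose and 4 fell at E17.5 against E11.5 (66.7%, against 58.6% of all genes). Casein kinase II combines catalytic alpha and regulatory beta subunits. Csnk2a1, an alpha subunit, had 256, 283 and 122 CPM in the E11.5 libraries, 103, 100.3 and 75.4 in those of E13.5, 53.6, 56.0 and 76.5 in those of E15.5 and 47.1, 25.1 and 33.4 in those of E17.5, with a log2 change of -2.64 ± 0.34 (SE; adjusted p = 5.03e-06) at E17.5 against E11.5. Csnk2b, the beta subunit, had 185, 285 and 219.7 CPM in the E11.5 libraries, 292, 387 and 593 in those of E13.5, 333, 418 and 415 in those of E15.5 and 559, 469 and 419 in those of E17.5. It was lowest at E11.5 and had a log2 change of 1.07 ± 0.28 (SE; adjusted p = 0.00375). Csnk2a2, another alpha subunit named after its values were seen, did not fall with Csnk2a1. Its 3 peaks rose by log2 0.44 to 1.32 at E17.5 against E11.5, after adding 1 CPM. The gene was called higher there, but the call was lost without any of 7 libraries (adjusted p 0.0516 to 0.197). It was also lost with DESeq2 size factors (0.0522), 3' UTR peaks alone (0.0727) or intronic peaks counted too (0.0584). The pseudogene Csnk2a1-ps3, named after its values were seen, averaged 243 ± 101 CPM for E11.5, 109 ± 9.65 for E13.5, 87.2 ± 29.0 for E15.5 and 62.1 ± 12.03 for E17.5. Reads of Csnk2a1 and this copy may have been shared between them, so both are uncertain. The count of falls in this family may therefore hold the same signal more than once.

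Csnk1g2, a membrane-bound casein kinase I, averaged 553 ± 62.9 CPM for E11.5, 241 ± 49.3 for E13.5, 187 ± 21.2 for E15.5 and 192 ± 29.0 for E17.5 and fell, with a log2 change of -1.20 ± 0.24 (SE; adjusted p = 0.00177) at E13.5 against E11.5. Csnk1d and Csnk1e, known from the circadian clock and Wnt signalling, did not pass in any comparison. Csnk1d averaged 91.2 ± 14.6 CPM for E11.5, 118 ± 40.0 for E13.5, 126 ± 23.1 for E15.5 and 101 ± 9.23 for E17.5. Csnk1e averaged 754 ± 379.8 CPM for E11.5, 467 ± 266 for E13.5, 503 ± 257 for E15.5 and 608 ± 71.2 for E17.5, with wide spread at the first 3 stages.

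In the group of DYRK, CDKL and GSK3 kinases 3 of 8 rose and 1 fell at E17.5 against E11.5 (50%, against 58.6% of all genes). Cdkl2 had 4.32, 1.85 and 1.23 CPM in the E11.5 libraries, 12.5, 10.98 and 10.7 in those of E13.5, 18.2, 37.6 and 25.8 in those of E15.5 and 81.3, 139 and 119 in those of E17.5. No neighbouring stages overlapped, and the log2 change was 2.12 ± 0.46 (SE; adjusted p = 0.00268) at E13.5 against E11.5 and 2.06 ± 0.33 (SE; adjusted p = 0.000382) at E17.5 against E15.5. Dyrk1a, a dosage-sensitive kinase of brain growth, averaged 152 ± 41.7 CPM for E11.5, 156 ± 78.1 for E13.5, 135 ± 40.4 for E15.5 and 103 ± 23.0 for E17.5 and did not pass.

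The paralogs of glycogen synthase kinase 3, a kinase of Wnt and insulin signalling, moved in opposite directions. Gsk3a had 374, 400.1 and 432 CPM in the E11.5 libraries, 407, 487 and 430.1 in those of E13.5, 485, 757 and 437 in those of E15.5 and 738, 835 and 767 in those of E17.5, with a log2 change of 0.96 ± 0.25 (SE; adjusted p = 0.00356) at E17.5 against E11.5. Its 3 peaks each have a counted peak on the opposite strand at the same place. Gsk3b had 292, 467 and 319.6 CPM in the E11.5 libraries, 242, 318 and 311 in those of E13.5, 319.6, 271 and 261 in those of E15.5 and 186, 193 and 137 in those of E17.5, with a log2 change of -1.07 ± 0.26 (SE; adjusted p = 0.00183). For both genes the E17.5 libraries lay apart from those of E11.5.

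AKT and PI3 kinases relay growth factor signals. Akt1 averaged 368 ± 138 CPM for E11.5, 220.0 ± 72.7 for E13.5, 243 ± 103 for E15.5 and 308 ± 73.2 for E17.5 and did not pass in any comparison. Akt2 averaged 34.5 ± 7.03 CPM for E11.5, 22.2 ± 5.20 for E13.5, 26.2 ± 2.73 for E15.5 and 19.2 ± 4.39 for E17.5. Its fall at E17.5 against E11.5 (log2 change -0.84 ± 0.30 SE, adjusted p = 0.0245) was lost without any of 4 libraries, E11.5 replicates 2 and 3 and E17.5 replicates 1 and 3 (adjusted p 0.0696 to 0.0817), with scaling by the plain total (0.138) and with 3' UTR peaks alone (0.295). Pik3r1, the regulatory subunit p85 alpha, had 29.8, 14.2 and 21.6 CPM in the E11.5 libraries, 40.8, 36.05 and 27.8 in those of E13.5, 39.2, 22.2 and 58.7 in those of E15.5 and 121, 87.5 and 106 in those of E17.5. It rose by a log2 change of 1.38 ± 0.34 (SE; adjusted p = 0.00755) at E17.5 against E15.5. Pik3ca, the catalytic subunit p110 alpha, averaged 28.4 ± 2.46 CPM for E11.5, 28.5 ± 6.03 for E13.5, 24.6 ± 3.87 for E15.5 and 20.4 ± 1.43 for E17.5 and did not pass. Pik3c2a, a class II kinase of endocytosis, had 28.3, 17.9 and 23.4 CPM in the E11.5 libraries, 11.2, 12.9 and 9.78 in those of E13.5, 12.1, 15.3 and 19.4 in those of E15.5 and 2.98, 2.63 and 3.29 in those of E17.5. It fell, with a log2 change of -2.38 ± 0.36 (SE; adjusted p = 0.00024) at E17.5 against E15.5, whereas its paralog Pik3c2b kept means of 40.6 ± 8.75 CPM for E11.5, 45.2 ± 10.1 for E13.5, 47.9 ± 6.55 for E15.5 and 48.7 ± 10.9 for E17.5.

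**Figure D3:**
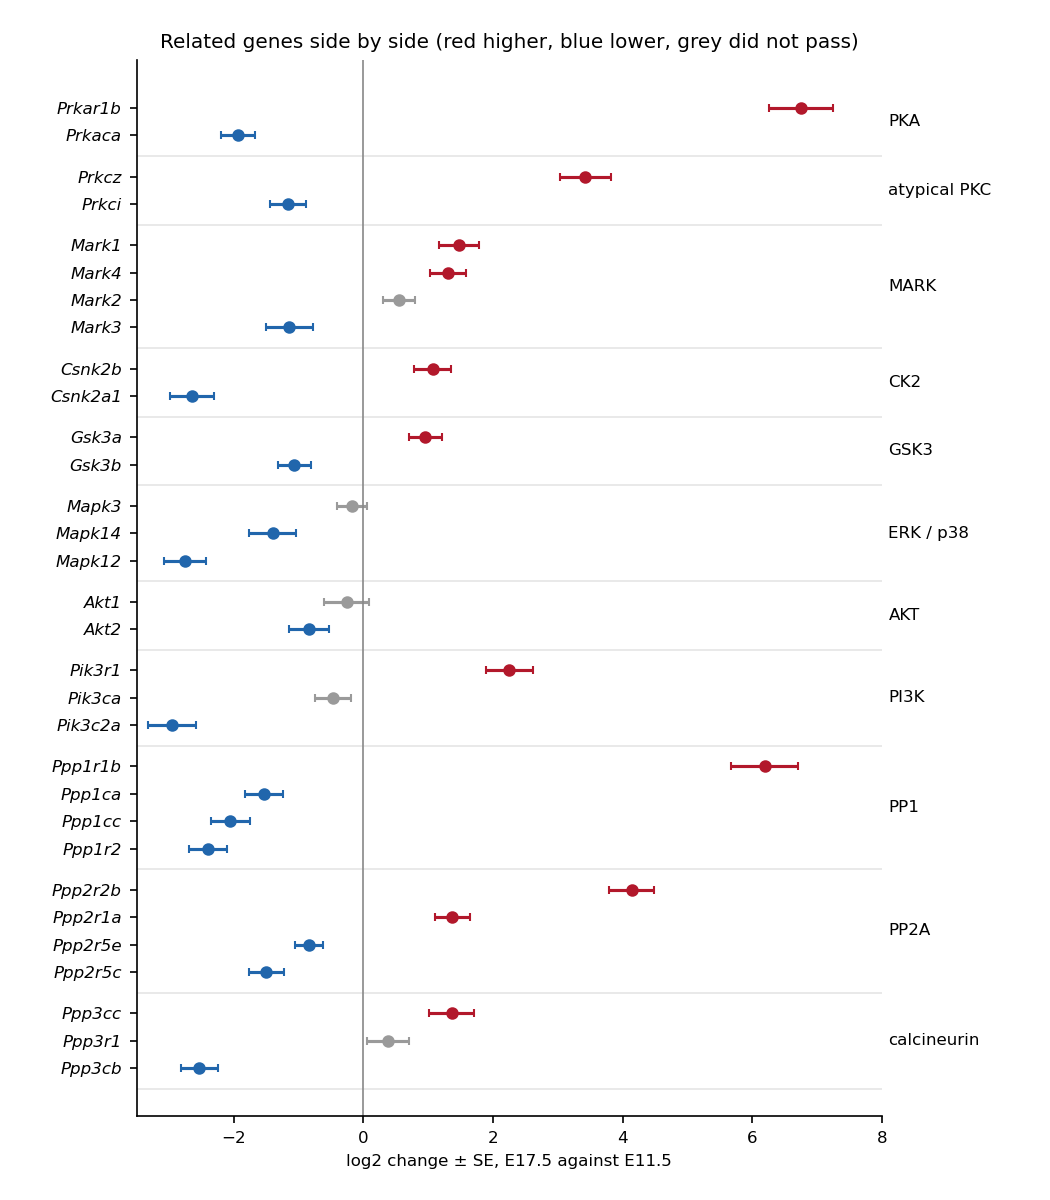
Log2 change at E17.5 against E11.5 with its SE (horizontal axis) for related genes grouped by family, positive values being higher at E17.5. Red and blue points passed the edgeR threshold and grey points did not. Prkar1b (6.75) and Prkaca (-1.94), Prkcz (3.42) and Prkci (-1.17), and Gsk3a (0.96) and Gsk3b (-1.07) lie on opposite sides of 0. Not every gene of a family is drawn, and Csnk2a2 and Prkar2b are among those left out.

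Dual-specificity phosphatases remove phosphate from MAP kinases and other targets. Of 9 genes, 2 rose and 4 fell at E17.5 against E11.5 (66.7%, against 58.6% of all genes). Dusp7, an ERK phosphatase, had 78.3, 109.9 and 73.4 CPM in the E11.5 libraries, 19.9, 28.9 and 44.3 in those of E13.5, 18.0, 18.2 and 21.7 in those of E15.5 and 24.1, 21.0 and 15.2 in those of E17.5. Dusp22, which acts in JNK signalling, had 68.2, 61.7 and 59.9 CPM in the E11.5 libraries, 22.1, 22.0 and 13.7 in those of E13.5, 17.8, 23.3 and 18.1 in those of E15.5 and 18.4, 22.2 and 23.0 in those of E17.5. Both were highest at E11.5 with no overlap, and their log2 changes at E13.5 against E11.5 were -1.49 ± 0.31 (SE; adjusted p = 0.00223) and -1.72 ± 0.28 (SE; adjusted p = 0.000276). Dusp16, a phosphatase of JNK and p38, fell late. It had 12.97, 15.4 and 17.3 CPM in the E11.5 libraries, 22.1, 40.8 and 16.5 in those of E13.5, 16.2, 16.7 and 20.2 in those of E15.5 and 4.88, 3.21 and 3.04 in those of E17.5, with a log2 change of -2.25 ± 0.39 (SE; adjusted p = 0.000758) at E17.5 against E15.5. Dusp14 was highest at the middle stages, with 10.6, 13.6 and 17.9 CPM in the E11.5 libraries, 62.9, 34.1 and 32.8 in those of E13.5, 76.8, 91.6 and 35.7 in those of E15.5 and 12.2, 18.4 and 10.9 in those of E17.5. It rose at E13.5 against E11.5 (log2 change 1.64 ± 0.40 SE, adjusted p = 0.00624) and fell at E17.5 against E15.5 (log2 change -2.30 ± 0.38 SE, adjusted p = 0.000535).

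Protein phosphatase 1 pairs few catalytic subunits with many regulators. Of 24 genes, 7 rose and 6 fell at E17.5 against E11.5 (54.2%, against 58.6% of all genes). With scaling by the plain total 10 rose and 5 fell. The catalytic subunits Ppp1ca and Ppp1cc fell. Ppp1ca had 793, 1253 and 732 CPM in the E11.5 libraries, 342, 382 and 507 in those of E13.5, 322, 331 and 320.5 in those of E15.5 and 421, 315 and 223 in those of E17.5, and Ppp1cc had 355, 498 and 452 CPM in the E11.5 libraries, 146, 178 and 145 in those of E13.5, 168, 163 and 138 in those of E15.5 and 80.4, 162 and 71.7 in those of E17.5. For both, all E11.5 libraries lay above all later ones, and the log2 changes at E17.5 against E11.5 were -1.54 ± 0.29 (SE; adjusted p = 0.000249) and -2.05 ± 0.30 (SE; adjusted p = 1.96e-05). Ppp1r2, an inhibitor of these subunits, had 644, 735 and 966 CPM in the E11.5 libraries, 332, 244 and 208 in those of E13.5, 227, 245 and 163 in those of E15.5 and 107, 164 and 173 in those of E17.5 and fell, with a log2 change of -2.40 ± 0.29 (SE; adjusted p = 3.04e-06).

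Some other regulators of protein phosphatase 1 rose. Ppp1r1b encodes DARPP-32, which inhibits the phosphatase after phosphorylation by protein kinase A and is known from striatal neurons. It had 0.48, 2.47 and 0 CPM in the E11.5 libraries, 28.8, 28.6 and 31.7 in those of E13.5, 46.7, 56.7 and 76.1 in those of E15.5 and 72.9, 59.5 and 81.8 in those of E17.5. It was near 0 at E11.5 and well above it in every later library, with a log2 change of 4.93 ± 0.53 (SE; adjusted p = 5.10e-06) at E13.5 against E11.5. Ppp1r12b, a myosin-targeting subunit, had 19.7, 18.5 and 17.3 CPM in the E11.5 libraries, 52.0, 62.5 and 45.4 in those of E13.5, 85.1, 129.6 and 76.1 in those of E15.5 and 167, 214 and 174 in those of E17.5. No neighbouring stages overlapped, and the log2 change at E17.5 against E11.5 was 3.32 ± 0.29 (SE; adjusted p = 1.05e-07). Ppp1r13b, which encodes ASPP1, a partner of p53, averaged 1.81 ± 1.69 CPM for E11.5, 3.998 ± 2.25 for E13.5, 9.32 ± 3.58 for E15.5 and 27.0 ± 5.17 for E17.5, with a log2 change of 3.94 ± 0.62 (SE; adjusted p = 3.80e-05).

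Ppp1r14a, an inhibitor of myosin phosphatase, had a middle peak, with 32.2, 21.0 and 30.2 CPM in the E11.5 libraries, 70.3, 67.1 and 84.8 in those of E13.5, 46.7, 39.1 and 38.5 in those of E15.5 and 10.8, 8.17 and 13.9 in those of E17.5. Its log2 change was 1.41 ± 0.28 (SE; adjusted p = 0.00143) at E13.5 against E11.5 and -1.91 ± 0.29 (SE; adjusted p = 0.000221) at E17.5 against E15.5. Ppp1r15a, which encodes GADD34 and directs the phosphatase to a translation factor, averaged 111 ± 49.0 CPM for E11.5, 183 ± 38.3 for E13.5, 228 ± 27.1 for E15.5 and 151 ± 58.9 for E17.5 and did not pass. Ppp1r9a, the actin-binding subunit neurabin, kept means of 52.4 ± 23.1 CPM for E11.5, 45.9 ± 6.99 for E13.5, 44.9 ± 5.33 for E15.5 and 44.8 ± 2.73 for E17.5.

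Protein phosphatase 2A holds a scaffold, a catalytic subunit and 1 of many regulatory subunits. Of 12 genes, 4 rose and 3 fell at E17.5 against E11.5 (58.3%, against 58.6% of all genes). Ppp2r2b, the neuronal regulatory subunit B beta, had 84.5, 79.6 and 49.4 CPM in the E11.5 libraries, 1140.2, 1138 and 882 in those of E13.5, 1379.7, 1706 and 1487 in those of E15.5 and 1819.9, 1128 and 819 in those of E17.5. Every library from E13.5 on lay above every E11.5 library by at least several-fold, with a log2 change of 3.88 ± 0.34 (SE; adjusted p = 7.55e-07) at E13.5 against E11.5. The E17.5 libraries spread widely, and the log2 change at E17.5 against E15.5 was -0.28 ± 0.30 (SE; adjusted p = 0.538). Ppp2r1a, a scaffold subunit, had 155, 291 and 211 CPM in the E11.5 libraries, 295, 213 and 309 in those of E13.5, 357, 395 and 279.5 in those of E15.5 and 553, 573 and 575 in those of E17.5 and rose by a log2 change of 1.37 ± 0.27 (SE; adjusted p = 0.000357) at E17.5 against E11.5. Of 5 B56-type subunits, Ppp2r5c and Ppp2r5e fell, while Ppp2r5b, named after its values were seen, rose by a log2 change of 1.77 ± 0.35 (SE; adjusted p = 0.000389). Ppp2r5c averaged 492 ± 37.2 CPM for E11.5, 215 ± 46.0 for E13.5, 189 ± 54.9 for E15.5 and 174 ± 22.2 for E17.5 and Ppp2r5e averaged 169 ± 6.84 CPM for E11.5, 118 ± 4.15 for E13.5, 109.5 ± 5.69 for E15.5 and 94.3 ± 12.1 for E17.5, with log2 changes of -1.499 ± 0.27 (SE; adjusted p = 0.000153) and -0.84 ± 0.22 (SE; adjusted p = 0.00347).

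Calcineurin is the calcium-activated phosphatase, with a catalytic A and a regulatory B subunit. Ppp3cb, catalytic A beta, had 122, 106 and 78.4 CPM in the E11.5 libraries, 50, 56.6 and 54.1 in those of E13.5, 28.7, 42.9 and 47.3 in those of E15.5 and 17.9, 18.1 and 17.2 in those of E17.5. It fell, with a log2 change of -2.53 ± 0.28 (SE; adjusted p = 1.16e-06) at E17.5 against E11.5. Ppp3cc, catalytic A gamma and named after its values were seen, averaged 21.4 ± 4.16 CPM for E11.5, 18.5 ± 2.39 for E13.5, 22.5 ± 11.2 for E15.5 and 54.7 ± 12.6 for E17.5 and rose by 1.36 ± 0.35 (SE; adjusted p = 0.00333). Ppp3r1, the B subunit, averaged 248 ± 78.7 CPM for E11.5, 302 ± 113 for E13.5, 335 ± 41.4 for E15.5 and 321 ± 103 for E17.5 and did not pass. Ppp5c, which encodes a phosphatase that binds the chaperone HSP90, averaged 117 ± 53.2 CPM for E11.5, 182 ± 11.3 for E13.5, 218 ± 9.39 for E15.5 and 348 ± 51.0 for E17.5 and rose by 1.57 ± 0.29 (SE; adjusted p = 0.00018).

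Of 8 non-receptor tyrosine phosphatases, 2 rose and 3 fell at E17.5 against E11.5 (62.5%, against 58.6% of all genes). With scaling by the plain total 2 rose and 1 fell. Ptpn5 encodes STEP, a brain phosphatase that opposes synaptic strengthening. It had 6.24, 11.1 and 17.9 CPM in the E11.5 libraries, 57.4, 32.7 and 53.7 in those of E13.5, 92.0, 151 and 50.9 in those of E15.5 and 369, 402 and 399.7 in those of E17.5. Its log2 change was 2.05 ± 0.42 (SE; adjusted p = 0.00176) at E13.5 against E11.5 and 1.996 ± 0.37 (SE; adjusted p = 0.00121) at E17.5 against E15.5. Its 3' UTR peak and its exon peak both rose, but to different extents. At E17.5 against E11.5 their log2 changes, taken after adding 1 CPM, were 5.27 and 3.31. The 3' UTR peak averaged 7.93 ± 3.37 CPM for E11.5, 40.2 ± 12.5 for E13.5, 85.5 ± 52.1 for E15.5 and 344 ± 17.6 for E17.5. The exon peak averaged 3.82 ± 2.64 CPM for E11.5, 7.75 ± 3.64 for E13.5, 12.4 ± 3.70 for E15.5 and 46.8 ± 3.05 for E17.5. Ptpn21, a cytoskeleton-linked phosphatase, averaged 40.5 ± 3.59 CPM for E11.5, 58.0 ± 4.13 for E13.5, 54.2 ± 5.997 for E15.5 and 24.8 ± 5.30 for E17.5, with a log2 change of -1.12 ± 0.25 (SE; adjusted p = 0.00425) at E17.5 against E15.5. Ptpn11, which encodes SHP2, an activator of RAS signalling, averaged 284 ± 88.9 CPM for E11.5, 386 ± 157 for E13.5, 382 ± 115 for E15.5 and 275 ± 52.9 for E17.5 and did not pass.

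Receptor tyrosine phosphatases act in axon guidance and synapse formation. Of 7 genes, 5 rose and none fell at E13.5 against E11.5 (71.4%, against 25.3% of all genes). Their median log2 change was 1.58, against 0.08 over all genes. The counts were 5 and 0 with scaling by the plain total and 4 and 0 with DESeq2 size factors. With 3' UTR peaks alone 3 of 5 rose, and with the higher-scoring peaks alone 1 of 3 rose, with a median log2 change of -0.083. Ptprs had 249.8, 316 and 295 CPM in the E11.5 libraries, 1193, 2055 and 1493 in those of E13.5, 2670.2, 2128 and 1816 in those of E15.5 and 1351, 2256 and 702 in those of E17.5. All libraries from E13.5 on exceeded all E11.5 libraries, with a log2 change of 2.46 ± 0.37 (SE; adjusted p = 0.000133) at E13.5 against E11.5. Ptprd, of the same subfamily, had 11.53, 7.41 and 22.2 CPM in the E11.5 libraries, 43.5, 32.0 and 47.4 in those of E13.5, 61.9, 48.5 and 42.6 in those of E15.5 and 136, 188 and 104 in those of E17.5. It rose again late, by 1.48 ± 0.33 (SE; adjusted p = 0.00444) at E17.5 against E15.5. Ptprf, the third of the subfamily, averaged 12.5 ± 8.45 CPM for E11.5, 33.8 ± 14.9 for E13.5, 43.7 ± 19.4 for E15.5 and 17.8 ± 7.87 for E17.5. Its rise at E13.5 against E11.5 (log2 change 1.45 ± 0.50 SE, adjusted p = 0.0412) was lost without E11.5 replicates 1 or 3, E13.5 replicates 1 or 2, or E17.5 replicate 1 (adjusted p 0.0512 to 0.186), and with DESeq2 size factors (0.0510).

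Ptpru and Ptpro also rose at E13.5 against E11.5. Ptpru had 25.5, 18.5 and 36.4 CPM in the E11.5 libraries, 104, 80.0 and 104 in those of E13.5, 75.8, 62.5 and 119.7 in those of E15.5 and 50.4, 35.6 and 44.6 in those of E17.5, with a log2 change of 1.84 ± 0.32 (SE; adjusted p = 0.000494). Ptpro averaged 1.05 ± 0.753 CPM for E11.5, 5.44 ± 0.89 for E13.5, 9.92 ± 2.31 for E15.5 and 6.49 ± 1.24 for E17.5, with a log2 change of 2.26 ± 0.56 (SE; adjusted p = 0.00712). Ptprz1, the pleiotrophin receptor of radial glia, averaged 69.9 ± 29.7 CPM for E11.5, 70.0 ± 11.51 for E13.5, 111 ± 18.7 for E15.5 and 129 ± 28.4 for E17.5. Its rise at E17.5 against E11.5 had a log2 change of 0.89 ± 0.30 (SE; adjusted p = 0.018). The call was lost without E11.5 replicates 1 or 3 or E17.5 replicate 2 (adjusted p 0.0665 to 0.0888), and with 3' UTR peaks alone (0.0517). The 3 peaks of Ptprz1 did not share a direction there, with log2 changes of -0.40 to 1.36 after adding 1 CPM. Ptpra, a phosphatase that activates Src kinases, kept means of 32.6 ± 10 CPM for E11.5, 30.7 ± 0.765 for E13.5, 36.4 ± 8.24 for E15.5 and 32.2 ± 5.66 for E17.5.

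The first and the last step, which share no library, sorted the genes into a few courses. There were 9 genes that rose at both (5.17%, against 3.25% of all genes): Camkv, Cdkl2, Dusp8, Mapk1ip1, Ppp1r12b, Prkar1b, Prkcz, Ptpn5 and Ptprd. There were 4 that fell at both (2.30%, against 2.85%): Map2k6, Nek7, Pik3c2a and Ppp3cb. There were 3 that rose and then fell (1.72%, against 1.83%): Dusp14, Ppp1r14a and Ptpru. No gene fell and then rose, against 0.418% of all genes. A further 32 passed at the first step alone (18.4%, against 16.9% of all genes) and 21 at the last step alone (12.1%, against 13.6%).

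These courses rest on single libraries for some genes. The first-step call was lost for Camkv without E11.5 replicates 1 or 3, E13.5 replicates 1 or 3, or E17.5 replicate 1 (adjusted p 0.0506 to 0.123), and with 3' UTR peaks alone (0.0529). It was lost for Dusp8 without E11.5 replicates 1 or 3, E13.5 replicates 2 or 3, or E17.5 replicate 1 (0.0641 to 0.170) and with DESeq2 size factors (0.0543). For Prkcz it was lost without E11.5 replicates 1 or 3 or E13.5 replicate 1 (0.0795 to 0.136). For Pik3c2a it was lost without replicate 1 or 3 of either stage (0.0559 to 0.110) and with scaling by the plain total (0.117). For Ppp3cb it was lost without replicate 1 of either stage (0.0564 and 0.0705) and with scaling by the plain total (0.106). The last-step call was lost for Ppp1r12b without E15.5 replicates 1 or 3 or E17.5 replicate 2 (0.0595 to 0.0784) and for Prkcz without E15.5 replicate 3 (0.0835). It was lost for Dusp8 without replicates 2 or 3 of E15.5 or 1 or 2 of E17.5 (0.0607 to 0.103) and for Ptpru without E15.5 replicate 3 or any E17.5 library (0.0510 to 0.156). For Map2k6 it was lost without E15.5 replicate 3 or E17.5 replicates 1 or 3 (0.0841 to 0.109) or with the higher-scoring peaks alone (0.0508). For Mapk1ip1 it was lost without E15.5 replicate 2 or E17.5 replicate 1 (0.0575 and 0.0605).

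**Figure D4:**
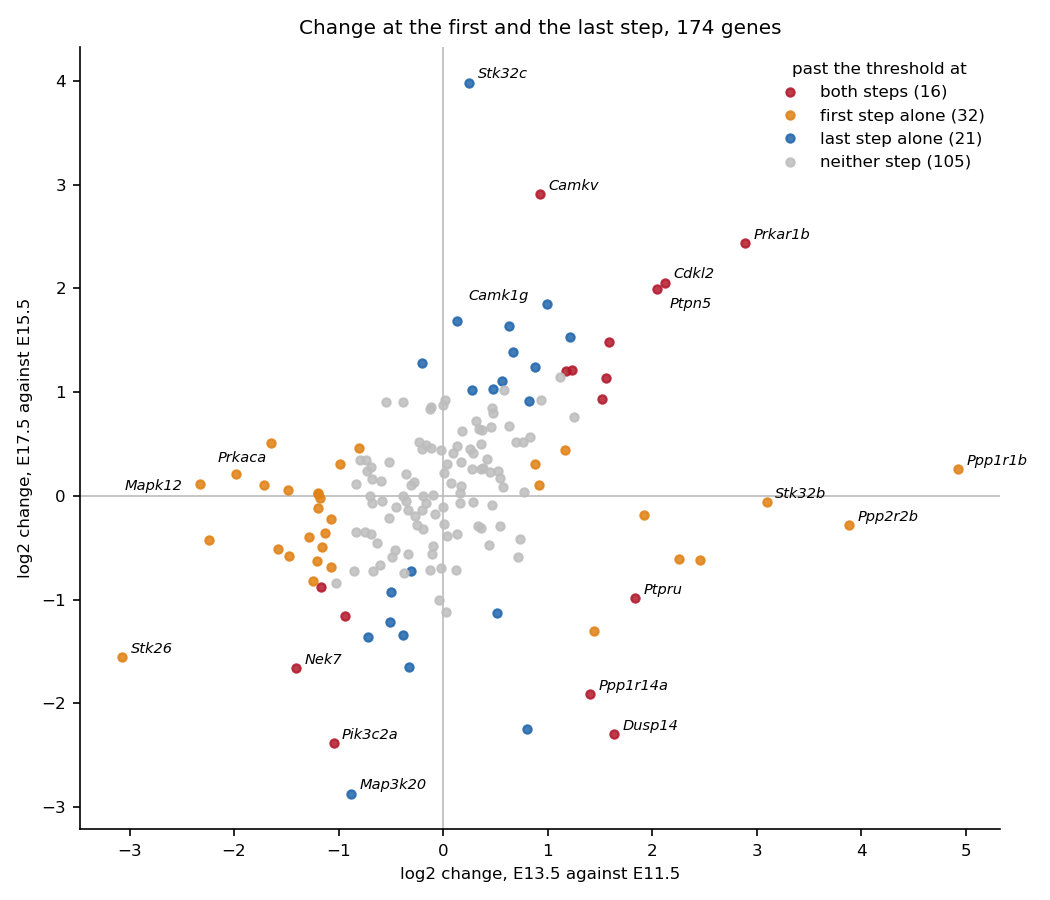
Log2 change at E17.5 against E15.5 (vertical axis) against log2 change at E13.5 against E11.5 (horizontal axis) for the 174 genes, coloured by the steps at which edgeR called them (numbers in the legend). Ppp1r1b (4.93), Ppp2r2b (3.88) and Stk32b (3.09) lie far to the right near 0 on the vertical axis, and Stk32c (3.98) and Camkv (2.91) lie at the top.

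Among genes with a mean of at least 20 CPM, the 5 with the least difference between stage means were Dyrk2, Pik3c2b, Ppp1r9a, Prkag1 and Ptpra. Dyrk2, a kinase of protein turnover, averaged 57.7 ± 29.6 CPM for E11.5, 51.4 ± 21.6 for E13.5, 58.1 ± 13.7 for E15.5 and 55.4 ± 17.3 for E17.5. In all, 58 of the 174 genes (33.3%) passed in no test, against 36.2% of all genes.

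Levels between genes were compared per peak length, as mean CPM over the 12 libraries per kb of peak. Among the 10 highest were Ppp1ca (1592 CPM per kb), Csnk1e (1439), Ppp2r2b (1352), Ptprs (1084), Csnk2b (876), Ppp3r1 (744), Gsk3a (572), Ppp1r15a (541) and Ppp1cc (526). The order holds for this pooled mean alone. Ppp1ca had stage means of 2978 CPM per kb for E11.5, 1319.9 for E13.5, 1044 for E15.5 and 1027 for E17.5, and Ppp2r2b had 98.6 CPM per kb for E11.5, 1459 for E13.5, 2111 for E15.5 and 1739 for E17.5, so Ppp2r2b was the higher of the pair from E13.5 on. The median of the 174 was 86.2 CPM per kb. Ppp1ca ranked 155 of all genes on this scale.

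Of the 82 genes with more than 1 peak of at least 120 counts over the 12 libraries, 68 (82.9%) had all peaks change in the same direction at E17.5 against E11.5, against 83.1% of 3249 genes.

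Kinases and phosphatases outside these families were described by lists beside the members. The lists named 82 other serine and threonine kinases, 50 tyrosine kinases and 55 other phosphatases, and only those with a counted peak were measured. Their counts at E17.5 against E11.5 stand beside 29.8% higher and 28.8% lower among all genes, with a median log2 change of 0.04. Of 63 other serine and threonine kinases, 25 rose and 23 fell (76.2% in all), with a median of 0.30. Mast1, a microtubule-associated kinase, averaged 7.09 ± 4.26 CPM for E11.5, 50.1 ± 6.69 for E13.5, 110.3 ± 23.8 for E15.5 and 483 ± 39.5 for E17.5, and Plk4, the kinase of centriole duplication, averaged 246 ± 53.0 CPM for E11.5, 123 ± 3.88 for E13.5, 70.8 ± 11.2 for E15.5 and 16.3 ± 1.93 for E17.5. Of 28 tyrosine kinases, 10 rose and 7 fell (60.7%), with a median of 0.29. Of 34 other phosphatases, 5 rose and 17 fell (64.7%), with a median of -0.82. Cdc25b, which triggers mitosis by activating CDK1, averaged 168 ± 6.43 CPM for E11.5, 69.5 ± 5.60 for E13.5, 51.1 ± 3.75 for E15.5 and 22.0 ± 2.19 for E17.5, and Ctdsp1, a phosphatase that keeps neuronal genes silent in other cells, averaged 135 ± 4.08 CPM for E11.5, 70.3 ± 16.4 for E13.5, 58.5 ± 10.8 for E15.5 and 13.7 ± 1.82 for E17.5.

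Upstream and downstream of the members, 14 of 32 listed AKAP and cyclic AMP genes had a counted peak. The others, Creb1 and Akap5 among them, were not measured. Of the 14, 8 rose and 3 fell at E17.5 against E11.5 (78.6%, against 58.6% of all genes). Their median log2 change was 0.97, against 0.04. Akap7, an anchor of protein kinase A, averaged 24.7 ± 12.4 CPM for E11.5, 16.6 ± 0.716 for E13.5, 22.4 ± 8.17 for E15.5 and 145 ± 19.2 for E17.5, with a log2 change of 2.69 ± 0.34 (SE; adjusted p = 6.39e-05) at E17.5 against E15.5. Of 27 RAS, RAF and RSK genes measured among 36 listed, 10 rose and 11 fell (77.8%), with a median of -0.09. Eif4ebp1, the translation repressor that mTOR switches off, averaged 154 ± 43.2 CPM for E11.5, 25.8 ± 4.81 for E13.5, 14.7 ± 2.60 for E15.5 and 5.35 ± 1.85 for E17.5, with a log2 change of -4.83 ± 0.36 (SE; adjusted p = 1.94e-08) at E17.5 against E11.5.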

How the data were processed

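STAU2 immunoprecipitations of mouse cortex were analysed from 1 table of merged peaks. The authors deposited whole-number counts per peak and strand for 12 libraries, with a peak width and a peak score. The deposited score was used only to set a stricter selection, peaks at or above the median score. Builds mm10 and GRCm38 and HOMER 4.10 appear in the submitters' processing notes. Not given in the sources used here were the aligner, the counting tool and how reads with several positions were treated. Per the labels' protocols, Ribo-Zero removed ribosomal RNA and the strand-marking ScriptSeq kit was used. At 14 of the 312 peaks a counted peak lies on the opposite strand at the same place.

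Peaks called Intron or Intergenic were left out. Exonic peaks that name no gene held 46.0% to 61.3% of exonic counts of a library and stayed out of totals and tests. Counts were summed per gene and tested with edgeR 4.0.16 (R 4.3.3): TMM, filterByExpr, 1 quasi-likelihood fit over 12 libraries with no replicate block, contrasts between stages, and Benjamini-Hochberg adjustment over 7651 genes. The biological coefficient of variation was 0.295. SE is the size of the log2 change divided by the square root of F. Pairs of replicates of a stage differed by more than sampling noise, so each counted as 1 sample. Folds were computed for peaks in 1 exon with RNAfold 2.7.2 on GENCODE vM21 transcripts. DESeq2 1.42.0 was an alternative.

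The genes and lists were chosen with earlier results of these data known. Genes were named by a rule: the 10 largest rises and falls past the threshold without overlap in each comparison, the 10 highest per peak length, the 5 with the least difference between stage means, the 2 with the smallest F test p per family, a set of well-known family members and the 2 genes with the smallest p per list. Some genes and a list that the rule picks are not reported here. Marker lists covered neurons, radial glia, cell cycle, meninges and mesenchyme, erythroid cells, and endothelium and microglia.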

Additional observations from a re-analysis of the deposited data

How the results depend on the processing

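Of 124 calls of named genes, 101 passed without each of the 12 libraries in turn and 23 were lost without at least 1. None of these named calls reversed under any alternative tried. Many of these genes were named for large changes or small p-values, which favours their calls. Among all the kinase and phosphatase genes, 16 of 48 calls at E13.5 against E11.5 were lost without at least 1 library. The losses were 17 of 37 calls at E17.5 against E15.5 and 21 of 110 at E17.5 against E11.5. Leaving out 1 library, the genes that changed over the 4 stages numbered 92 to 105. At E13.5 against E11.5, 16 to 23 were higher and 21 to 28 lower. At E17.5 against E15.5, 13 to 24 were higher and 11 to 18 lower. Comparing E17.5 with E11.5, 51 to 59 were higher and 47 to 53 lower. At E15.5 against E13.5 there were 0 in either direction. Scaling by the plain total gave 41 higher and 17 lower at E13.5 against E11.5. The DESeq2 test called 4 higher at E15.5 against E13.5. With 3' UTR peaks alone 121 of the genes could be tested, with 17 lower at E13.5 against E11.5 and 37 higher and 35 lower at E17.5 against E11.5. With the higher-scoring peaks, 113 could be tested: 63 changed over the stages, 11 were higher at E13.5 against E11.5, 9 higher and 8 lower at E17.5 against E15.5, and 34 higher at E17.5 against E11.5. Without the E11.5 libraries, an alternative chosen after seeing the data, 55 changed over the 3 later stages. The replicate numbers share no stated source, and deviations of libraries with the same number correlated at -0.184 to 0.511, so no pairing was assumed. With a replicate block, 106 changed over the stages, with 22 higher and 27 lower at the first step (E13.5 against E11.5), 22 and 18 at the last step (E17.5 against E15.5), and 60 and 54 at E17.5 against E11.5. Depth was lowest at E11.5, which limits genes scarce at that stage such as Stk32c.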
